A study of Mus musculus with 12 samples.

Results

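DNA methylation in mammals is written by de novo enzymes and copied by a maintenance machinery. Dnmt1 is the maintenance methyltransferase and restores methyl groups on the new strand behind the replication fork. Uhrf1 binds hemimethylated CpG sites and recruits Dnmt1, and Hells (also called Lsh) is a chromatin remodeller of the SNF2 family that is needed for normal methylation of repeats. Dnmt3a and Dnmt3b are the de novo methyltransferases, and Dnmt3l is a relative without catalytic activity that stimulates them, mainly in germ cells and embryonic stem cells. In human acute myeloid leukaemia, DNMT3A is a frequent target of mutation.

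These 6 genes were chosen by name, with earlier results of these data known, and were followed on 12 arrays. They are 6 of the 22180 genes that had a probe set annotated to a sole symbol. Each was read by 1 probe set, and all 6 exceeded the filter on low values, log2 4.61 on at least 3 arrays, on 12 of 12 arrays. The arrays were made from 6 leukaemias of mice, each started with the fusion oncogene MLL-AF9, which is known from acute leukaemias and which every sample carries. Leukaemias 81, 83 and 85 were labelled Dnmt3b-knockin, under a heading of Dnmt3b overexpression, and leukaemias 73, 75 and 79 were labelled WT. From each leukaemia, cells positive and cells negative for c-kit, a receptor tyrosine kinase that marks immature blood cells, were sorted by FACS and hybridised separately, which gives 4 groups of 3 arrays. The labels give no promoter, inducer or isoform for the knock-in, no age of the mice, and no statement that each number is a separate animal. They name bone marrow in titles and spleen in the source field. P-values therefore speak for these 6 numbered leukaemias alone. In the model on all 12 arrays they measure the spread of arrays within the 4 groups. In tests on leukaemia means they measure the spread between leukaemias. In tests of c-kit differences within leukaemias they measure the spread of those differences.

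The genes lie on different chromosomes of the mouse genome (RefSeq annotation of GRCm38.p6). Dnmt1 spans chr9:20907206-20959888, Uhrf1 chr17:56303337-56323486 and Hells chr19:38930262-38970470. Dnmt3a spans chr12:3801559-3914443, Dnmt3b chr2:153649411-153687730 and Dnmt3l chr10:78042287-78063622. Where within a transcript each probe set lies was not given in the sources used here, and the same holds for whether the Dnmt3b probe set detects the knock-in transcript.

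The promoters of the maintenance genes hold related short sequences, and the stretches that hold them are shown as a description. The forms shown differ: TTTCGCGC in Dnmt1 and Uhrf1, and TTTCCCGC in Hells. RefSeq lists 3 promoter windows of 300 bases for Dnmt1, 2 for Uhrf1 and 1 for Hells, and in 1 window of each gene there is a motif of the type bound by E2F factors, which drive genes of the G1 to S transition. The letters searched were TTTCCCGC, TTTGGCGC, TTTCGCGC and TTTGCCGC on both strands. A stretch can match only 1 of these forms on a strand, though matches on opposite strands can overlap. In the following 30-base stretches, read 5′ to 3′ along the gene's strand, capitals mark the motif or its reverse complement. The Dnmt1 stretch is chr9:20952824-20952853 on the minus strand, the Uhrf1 stretch chr17:56304117-56304146 on the plus strand and the Hells stretch chr19:38930917-38930946 on the plus strand.
Dnmt1: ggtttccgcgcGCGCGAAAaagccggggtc
Uhrf1: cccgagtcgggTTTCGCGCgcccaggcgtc
Hells: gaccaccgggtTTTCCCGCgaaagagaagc
The motif starts 219 bases before the listed start of Dnmt1, 185 before that of Uhrf1 and 62 before that of Hells, and the Dnmt1 window holds another match, TTTGGCGC, past the start. A match is held by 744 of all 32851 listed promoters, which is 2.26%, and of 27025 genes 704 hold it in any promoter, which is 2.61%. The 7 windows of Dnmt3a, Dnmt3b and Dnmt3l hold none of these letters. Among the gene lists described later, a match is held by 12 of 27 replication genes, 4 of 22 maintenance partners and 3 of 17 partners and guides of the de novo enzymes. It is held by 1 of 17 mitosis genes and by none of 16 methyl donor, 11 demethylation and 4 reader genes. The stretches of Mcm7, a subunit of the replicative helicase, and of Suz12, a Polycomb subunit, were picked as examples of listed genes that hold a match, and are chr5:138172030-138172059 on the minus strand and chr11:79992876-79992905 on the plus strand.
Mcm7: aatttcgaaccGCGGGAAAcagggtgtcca
Suz12: cgacccctcatTTTCCCGCgaattcagttc
The motif was chosen after the members' promoters had been read, so its presence in the maintenance genes is no test against these shares. Both Mcm7 and Suz12 were called higher in c-kit-positive cells in the comparison described later. Other listed genes with a match, such as Orc1 and Cbx3, were not called there. A match is a stretch of letters and not a measured binding site, and its part in the array values was not tested.

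The deposited values are log2 intensities summarised by RMA, and a difference of 1 is a 2-fold change. Arrays of a group correlated at 0.949 to 0.988 over the probe sets. The sort was borne out by Kit itself, which was higher by 1.31 in c-kit-positive cells of knock-in-labelled leukaemias and by 1.5 in those of wild-type leukaemias (limma, adjusted p = 0.000373 and 0.000437). All 9 myeloid marker genes were above the filter, with a mean of 8.49 to 9.47 over the arrays. The measured B cell, T and NK cell, erythroid and megakaryocyte markers were above it too, so passing the filter does not name a cell type. Between the fractions the myeloid genes split. Over both genotypes 3 were higher in c-kit-positive cells, Mpo (2.85), Ctsg (1.79) and Elane (1.61), and 3 were lower, Csf1r (-1.46), Ptprc (-0.75) and Itgam (-0.62). The c-kit-negative array of leukaemia 85 stands apart: its mean over 30 replication genes was 6.38, against 6.77 to 7.11 on the other c-kit-negative arrays. Results are therefore given with and without this array of leukaemia 85 where it matters. The c-kit-negative array of leukaemia 81 differed in lymphocyte markers. Its mean over the B cell markers was 6.15, against 5.61 to 5.68 on the other c-kit-negative arrays, and over the T and NK markers 5.80, against 5.33 to 5.60. It also held the highest Dnmt3a value, 6.28. Results without this array alone are not given, and the part of these markers in the members' values was not tested.

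Across the arrays the maintenance genes varied more than most genes, and the de novo genes did not. The standard deviation over 12 arrays was 0.556 for Dnmt1, 0.522 for Uhrf1 and 0.375 for Hells on the log2 scale, and 98.0%, 97.4% and 92.4% of the tested genes had a smaller value. For Dnmt3a, Dnmt3b and Dnmt3l it was 0.126, 0.167 and 0.162, with 21.4%, 47.1% and 44.3% of genes below them. A level of a probe set is not set against that of another, since probes differ in brightness.

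Dnmt1 had log2 values of 9.41, 9.29 and 8.83 in c-kit-positive cells of leukaemias 81, 83 and 85 (knock-in label), and 9.0, 9.13 and 9.25 in the wild-type ones, 73, 75 and 79. In c-kit-negative cells it had 8.86, 8.29 and 7.44 in the knock-in-labelled leukaemias and 8.34, 8.40 and 8.78 in the wild-type leukaemias. The group means were 9.18 ± 0.30 in knock-in c-kit-positive, 9.13 ± 0.12 in wild-type c-kit-positive, 8.20 ± 0.71 in knock-in c-kit-negative and 8.51 ± 0.24 in wild-type c-kit-negative cells (SD, n = 3). In each leukaemia the c-kit-positive array was the higher. The ranges of the fractions were separate in the wild-type leukaemias and met in the knock-in-labelled ones, where the c-kit-positive value of leukaemia 85 lay just under the c-kit-negative value of leukaemia 81.

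Uhrf1, the reader of hemimethylated CpG, had 8.03, 8.14 and 7.56 in knock-in c-kit-positive cells and 8.06, 8.14 and 8.17 in wild-type c-kit-positive cells, in the same order of leukaemias. In c-kit-negative cells the values were 7.48, 6.86 and 6.85 with the knock-in label and 7.15, 7.04 and 7.84 in wild type. Both genotype labels showed separate fractions, and within a fraction the genotype labels overlapped. Group means were 7.91 ± 0.31 and 8.13 ± 0.06 in c-kit-positive cells of knock-in-labelled and wild-type leukaemias, and 7.06 ± 0.36 and 7.35 ± 0.43 in the c-kit-negative cells (SD, n = 3).

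Hells, the remodeller, had 6.54, 6.40 and 5.78 in knock-in c-kit-positive cells, and 6.51, 6.55 and 6.54 in wild-type c-kit-positive cells. Its c-kit-negative values were 6.01, 6.05 and 5.37 in knock-in-labelled leukaemias and 6.09, 5.92 and 6.41 in wild-type leukaemias. Leukaemia 85 was the lowest in both fractions. Group means were 6.24 ± 0.40 and 6.53 ± 0.02 in c-kit-positive cells of knock-in-labelled and wild-type leukaemias, and 5.81 ± 0.38 and 6.14 ± 0.25 in the c-kit-negative cells (SD, n = 3). The fractions were separate in wild type and overlapped under the knock-in label, where the c-kit-positive value of leukaemia 85 fell among the c-kit-negative ones.

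Dnmt3a, the main de novo enzyme of blood stem cells, stayed between 5.88 and 6.28 on all 12 arrays. It had 6.02, 5.92 and 6.02 in knock-in c-kit-positive cells and 6.21, 5.94 and 6.07 in wild-type c-kit-positive cells. The c-kit-negative values were 6.28, 5.92 and 5.95 with the knock-in label and 5.91, 5.88 and 6.07 in wild type. The group means lay between 6.07 ± 0.14 in wild-type c-kit-positive and 5.95 ± 0.10 in wild-type c-kit-negative cells (SD, n = 3), and all 4 groups overlapped.

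Dnmt3b, the gene named by the knock-in, had 6.49, 6.38 and 6.33 in c-kit-positive cells with the knock-in label, against 6.66, 6.41 and 6.33 in wild-type c-kit-positive cells. In c-kit-negative cells it had 6.16, 6.34 and 6.64 with the knock-in label, against 6.25, 6.38 and 6.10 in wild type. The means were 6.40 ± 0.08 and 6.47 ± 0.17 in c-kit-positive cells of knock-in-labelled and wild-type leukaemias, and 6.38 ± 0.24 and 6.24 ± 0.14 in the c-kit-negative cells (SD, n = 3). The groups overlapped in both fractions, and the array with the highest c-kit-negative value was that of leukaemia 85. Over both fractions the difference was 0.03, with a 95% confidence interval of -0.19 to 0.25 (limma on leukaemia means, adjusted p = 0.964). The deposited Dnmt3b values thus do not set the knock-in label apart, so the leukaemias are called by their label throughout and every genotype direction rests on the label.

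Dnmt3l had 5.68, 6.23 and 6.09 in knock-in c-kit-positive cells and 6.21, 5.88 and 6.01 in wild-type c-kit-positive cells. Its c-kit-negative values were 6.09, 6.05 and 5.93 with the knock-in label and 6.03, 5.94 and 6.24 in wild type. All 4 groups overlapped, and their means ran from 6.0 ± 0.29 in knock-in c-kit-positive to 6.07 ± 0.16 in wild-type c-kit-negative cells (SD, n = 3). The plot of the members on all arrays shows these values on panels of equal span.

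**Figure D1:**
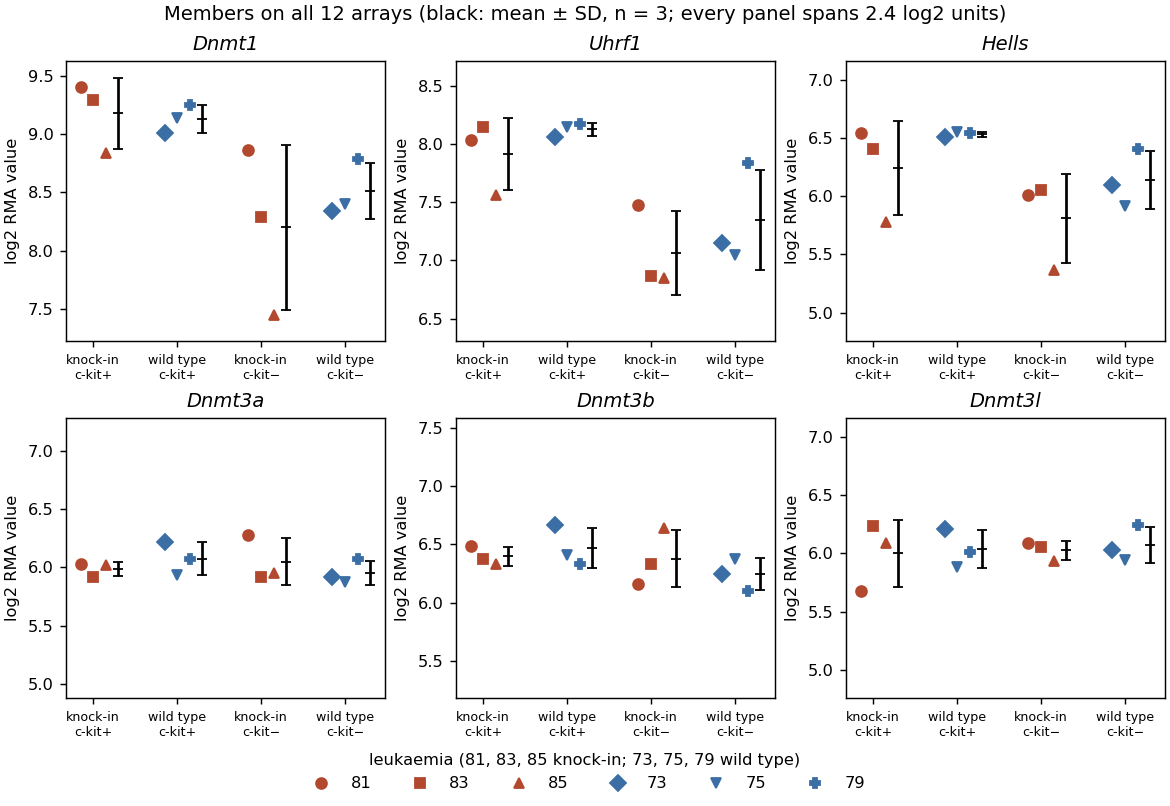
Log2 RMA value (vertical axis) of each member in the 4 groups (horizontal axis: knock-in then wild-type label, c-kit-positive cells at the left). Each symbol is a leukaemia, red for knock-in-labelled and blue for wild type, and black marks are the mean ± SD of 3 arrays. Dnmt1, Uhrf1 and Hells are higher in c-kit-positive cells, whereas Dnmt3a, Dnmt3b and Dnmt3l each span at most 0.57 log2 units over all arrays.

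The comparison of the sorted fractions asks how the methylation machinery differs between the c-kit-positive and the c-kit-negative cells of each leukaemia. Over both genotypes, Dnmt1 rose by 0.80 (standard error 0.19), a 1.74-fold change, and Uhrf1 rose by 0.81 (standard error 0.16), a 1.76-fold change. Both passed the test (limma with Benjamini-Hochberg adjustment over 19152 genes, adjusted p = 0.0239 and 0.00721). These were 2 of the 6 members called higher and 0 called lower, where 5.84% of all tested genes were called higher and 2.41% lower. Hells differed by 0.41, with a 95% confidence interval of 0.09 to 0.73, and missed the threshold (adjusted p = 0.112). Dnmt3a differed by 0.03 (interval -0.15 to 0.21), Dnmt3b by 0.12 (interval -0.08 to 0.33) and Dnmt3l by -0.03 (interval -0.25 to 0.19), and none of them passed.

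The 12-array model treats both fractions of a leukaemia as independent. With the leukaemia number as a replicate block, Hells passed too (limma, adjusted p = 0.00256), as did Dnmt1 (0.000198) and Uhrf1 (0.000431), which makes 3 of 6 members where 13.0% of tested genes were called higher. Leukaemia by leukaemia, the difference was 0.55, 1.0 and 1.39 for Dnmt1 with the knock-in label (81, 83 and 85 in order), and 0.67, 0.73 and 0.46 in wild type (73, 75 and 79). For Uhrf1 it was 0.55, 1.28 and 0.71 with the knock-in label and 0.91, 1.10 and 0.33 in wild type. For Hells it was 0.53, 0.35 and 0.41 with the knock-in label and 0.42, 0.63 and 0.13 in wild type. All 3 maintenance genes were higher in c-kit-positive cells in 6 of 6 leukaemias, which gave p = 0.03125 in the two-sided exact sign-flip permutation test, the smallest p that 6 leukaemias allow. This held for 13.0% of all tested genes.

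Dnmt3b was higher in 5 of 6 leukaemias, with differences between -0.31 and 0.41 (exact permutation p = 0.281), and leukaemia 85 was the exception. For Dnmt3a the differences were -0.26, 0.000042 and 0.07 with the knock-in label, and 0.30, 0.06 and 0.0031 in wild type, in the same order of leukaemias (exact p = 0.531), so that in 2 leukaemias the fractions were practically equal. For Dnmt3l 3 of 6 were higher, with differences between -0.41 and 0.18 (exact p = 0.781). Without the array of c-kit-negative cells from leukaemia 85, Dnmt1 differed by 0.61 and Uhrf1 by 0.76 (limma, adjusted p = 0.0171 and 0.0140), and both still passed. Leaving out a whole leukaemia ended calls: without leukaemia 73, 75 or 83 neither gene passed, with adjusted p of 0.101, 0.124 and 0.103 for Dnmt1 and 0.0519, 0.0593 and 0.0610 for Uhrf1 (limma), and without leukaemia 79 Dnmt1 had 0.0569. The differences themselves then stayed at 0.79, 0.77, 0.79 and 0.84 for Dnmt1 without 73, 75, 83 and 79, and at 0.78, 0.73 and 0.71 for Uhrf1 without 73, 75 and 83. Without leukaemia 85, Hells passed as well (limma, adjusted p = 0.0201). Without the c-kit-negative array of that leukaemia alone, Hells differed by 0.30 and did not pass (limma, adjusted p = 0.213).

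**Figure D2:**
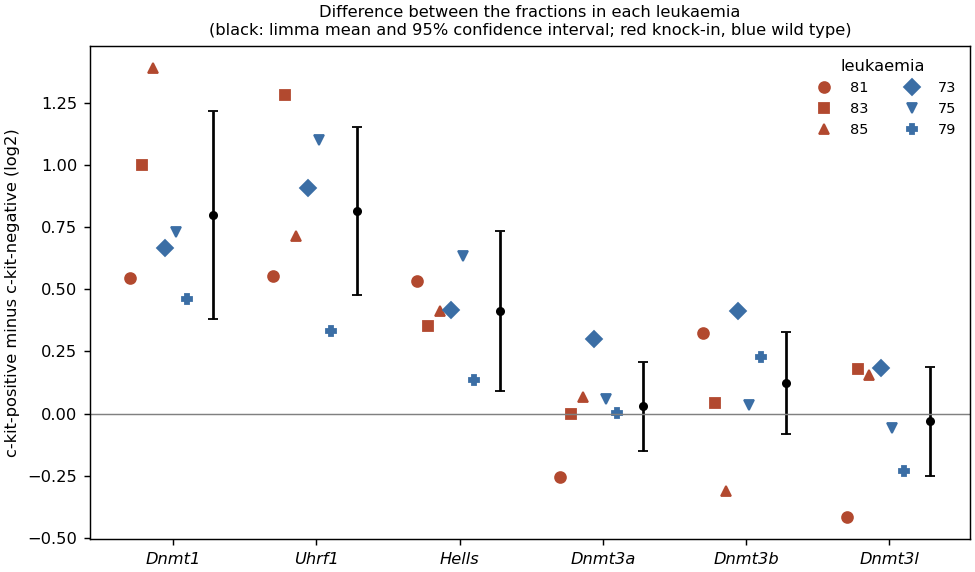
Difference between c-kit-positive and c-kit-negative cells (log2, vertical axis) for each member. Symbols are the 6 leukaemias, red for knock-in-labelled and blue for wild type, and the black point and bar are the limma mean over both genotypes with its 95% confidence interval. All 6 leukaemias lie above 0 for Dnmt1, Uhrf1 and Hells, while the intervals of Dnmt3a, Dnmt3b and Dnmt3l include 0.

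Within the knock-in label alone, Dnmt1 differed by 0.98 and Uhrf1 by 0.85, and 0 of 6 members passed (limma, adjusted p = 0.0987 and 0.0751), where 1.88% of all tested genes were called. In wild-type leukaemias alone, the differences were 0.62 and 0.78, again with 0 of 6 members called (limma, adjusted p = 0.288 and 0.113), where 0.768% of tested genes were called. With the replicate block, Dnmt1, Uhrf1 and Hells passed within each genotype label. Their adjusted p was 0.00121, 0.00641 and 0.0277 with the knock-in label, where 5.95% of genes were called higher, and 0.0159, 0.0106 and 0.0376 in wild type, where 7.96% were (limma). The ranges of c-kit-positive and c-kit-negative arrays were separate for 1 of the 3 maintenance genes, Uhrf1, with the knock-in label, and for 3 of 3 in wild type. The same was true of 7.24% and 14.5% of all tested genes in the 2 labels.

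The size of the c-kit difference was then compared between the genotype labels. The interaction was 0.36 for Dnmt1 (95% confidence interval -0.48 to 1.19), 0.07 for Uhrf1 (-0.61 to 0.74) and 0.04 for Hells (-0.60 to 0.68). It was -0.18 for Dnmt3a, -0.21 for Dnmt3b and 0.01 for Dnmt3l. None of the 6 members passed, and 0% of all 19152 genes did (limma, with 427 genes at an unadjusted p under 0.05), also with the replicate block. The Dnmt1 value rests on the c-kit-negative array of leukaemia 85: without it the interaction was -0.02.

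Maintenance and de novo genes were set against each other through their c-kit differences, which avoids setting the level of a probe set against that of another. Signal can still limit a difference. The de novo genes ran from 5.68 to 6.66, near the median of the deposited table, 5.63. Dnmt1 ran from 7.44 to 9.41, Uhrf1 from 6.85 to 8.17 and Hells from 5.37 to 6.55. Whether low signal holds down the differences of the de novo genes was not tested. Within each leukaemia the difference of a de novo gene was subtracted from that of a maintenance gene, for all 9 pairs. In 8 of 9 pairs the maintenance gene had the larger c-kit difference in 6 of 6 leukaemias (exact sign-flip permutation p = 0.03125, the smallest possible, and 0.0352 after adjustment over the 9 pairs). The pairs reuse the same 6 genes, so they are not independent. The count partly restates that the maintenance genes were higher in 6 of 6 leukaemias, as 13.0% of all tested genes were. The share of all genes that exceed the de novo genes in this way was not determined. The mean excess ranged from 0.38 for Hells over Dnmt3a to 0.84 for Uhrf1 over Dnmt3l. Dnmt1 exceeded Dnmt3b by 0.68 ± 0.58 and Uhrf1 exceeded Dnmt3b by 0.69 ± 0.48 (SD, n = 6). Hells against Dnmt3b was the exception, with a mean of 0.29 ± 0.32 (SD), 5 of 6 leukaemias above 0 and an exact permutation p of 0.0938. After repeated quantile normalization Uhrf1 against Dnmt3b no longer passed (mean excess 0.65, exact permutation p = 0.0625, adjusted 0.0703). With a leukaemia left out the test cannot go below 0.0625, so it can call no pair, and the mean excess of the 8 pairs was then 0.30 to 0.90.

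The genotype comparison asks whether leukaemias labelled Dnmt3b knock-in carry other levels of the methylation machinery than wild-type ones. Over both fractions, Dnmt1 averaged 8.69 ± 0.50 with the knock-in label and 8.82 ± 0.18 in wild type, Uhrf1 7.49 ± 0.28 and 7.74 ± 0.23, and Hells 6.02 ± 0.39 and 6.34 ± 0.12 (SD, n = 3 leukaemias). The differences were -0.13, -0.25 and -0.31 (limma on leukaemia means, adjusted p = 0.924, 0.762 and 0.725). Their 95% confidence intervals ran from -0.65 to 0.38 for Dnmt1, from -0.62 to 0.12 for Uhrf1 and from -0.72 to 0.10 for Hells. Without leukaemia 85 the differences were 0.14 for Dnmt1, -0.11 for Uhrf1 and -0.085 for Hells, without leukaemia 81 they were -0.35, -0.38 and -0.43, and without leukaemia 79 that of Uhrf1 was -0.11. None of the 6 members passed, where 0.0261% of all tested genes did, and the leukaemia means of every member overlapped between the labels. Exact permutation p-values ran from 0.2 for Hells to 1 for Dnmt3a, and 3 leukaemias against 3 cannot go below 0.1.

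In c-kit-positive cells the difference of the knock-in label from wild type was 0.05 for Dnmt1, -0.21 for Uhrf1, -0.29 for Hells, -0.09 for Dnmt3a, -0.07 for Dnmt3b and -0.04 for Dnmt3l. In c-kit-negative cells it was -0.31, -0.28, -0.33, 0.09, 0.14 and -0.04 for the same genes. In both fractions 0 of 6 members passed, where 0.141% of genes were called in c-kit-positive and 0.0627% in c-kit-negative cells (limma). The direction of Dnmt1 depended on leukaemia 85: without its c-kit-negative array, the difference was 0.07 in c-kit-negative cells and 0.10 over both fractions. The excess of a maintenance over a de novo gene did not pass between the genotype labels in any of 9 pairs, with exact permutation p from 0.2 to 0.9.

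**Figure D3:**
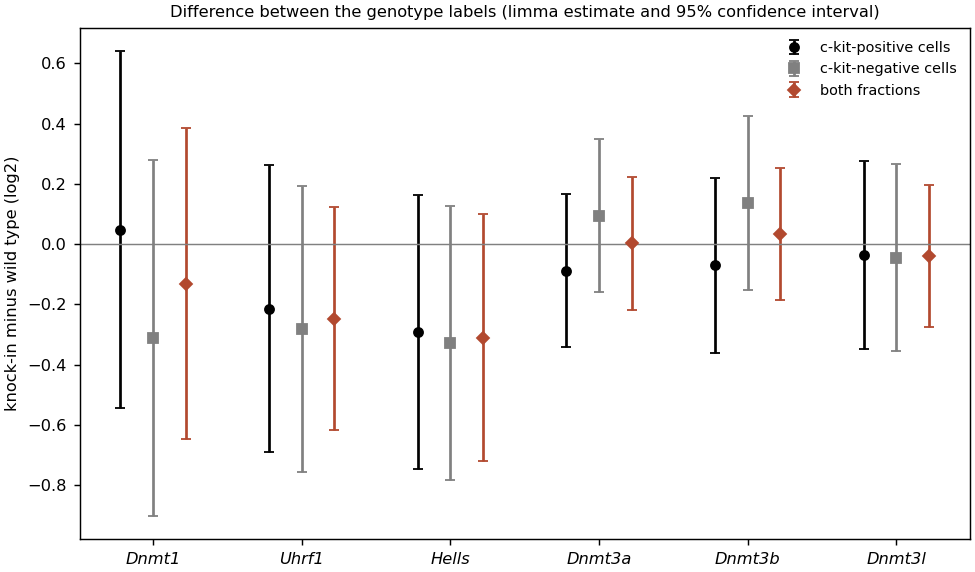
Knock-in label minus wild type (log2, vertical axis) for each member, as the limma estimate with its 95% confidence interval, in c-kit-positive cells, c-kit-negative cells and over both fractions. Every interval includes 0. The intervals of Dnmt1, Uhrf1 and Hells are wider than those of Dnmt3a, Dnmt3b and Dnmt3l.

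The partners of the members were then read in the c-kit comparison over both genotypes, against a median of -0.03 over all tested genes. Of all tested genes 5.84% were called higher and 2.41% lower, and 13.0% higher with the replicate block. For settings with a leukaemia or array left out this share is not given, so a changed count there may follow fewer or more calls over all genes. Of 22 tested partners of maintenance methylation, 7 rose and 0 fell, with a median difference of 0.34. Cdca7l, a relative of the Hells partner Cdca7, rose by 1.08, and the histone deacetylase gene Hdac2 rose by 0.74. Pclaf, a factor that binds the replication clamp, rose by 0.67 and Lig1, the ligase of lagging-strand synthesis, by 0.60. With the replicate block 15 rose. Without leukaemia 73, 75, 79 or 83 the count was 3, 2, 5 and 4, without 81 or 85 it was 8 and 9, and without the array of c-kit-negative cells from leukaemia 85 it was 5.

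Of 19 tested partners and guides of the de novo enzymes, 6 rose and 0 fell, with a median of 0.29, where 5.84% of all tested genes rose. Suz12 and Ezh2, subunits of the Polycomb complex that methylates histone H3, rose by 0.85 and 0.71. Cbx5, which encodes the heterochromatin protein HP1 alpha, rose by 0.75, and the chromatin remodeller gene Atrx rose by 0.63. The guides of the de novo enzymes thus included called genes although the enzymes themselves did not pass. The count was 10 with the replicate block, 2 without leukaemia 73, 75 or 83, 3 without leukaemia 79, and 6 and 5 without 81 and 85.

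Among 17 tested genes of methyl donor supply, 7 rose and 0 fell, with a median of 0.30, where 5.84% of all tested genes rose. Mthfd1 and Mthfd1l of folate metabolism rose by 0.52 and 0.43, Mtr, the methionine synthase, by 0.43, and Mat2b, a regulatory subunit of the enzyme that makes S-adenosylmethionine, by 0.42. The count was 1, 0, 2 and 0 without leukaemia 73, 75, 79 and 83, and 4 without the array of c-kit-negative cells from leukaemia 85. Of 8 demethylation genes 1 rose, Idh2 with 0.84, which encodes a mitochondrial isocitrate dehydrogenase. Of 6 methyl-CpG reader genes 1 rose, Mbd1 with 0.48, and 4 did with the replicate block. Idh2 did not pass without leukaemia 73, 75 or 83, and no reader passed without 73, 75, 79, 83 or 85.

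Cell cycle genes moved with the fractions as well. Of 30 replication and S phase genes 18 rose and 0 fell, with a median of 0.49, where 5.84% of all tested genes rose. Rrm1, a subunit of ribonucleotide reductase, rose by 1.11, the thymidine kinase gene Tk1 by 0.93, Dtl, which marks proteins for destruction at the replication clamp, by 0.85, and the helicase subunit gene Mcm7 by 0.81. The count was 8, 8, 12 and 9 without leukaemia 73, 75, 79 and 83, and 15 without the array of c-kit-negative cells from leukaemia 85. All 19 mitosis genes rose, with a median of 0.97, among them Cdk1 by 1.34, Top2a by 1.22, Aurkb by 1.14 and Kif11 by 1.13, and 17 to 19 of them passed with any leukaemia left out.

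**Figure D4:**
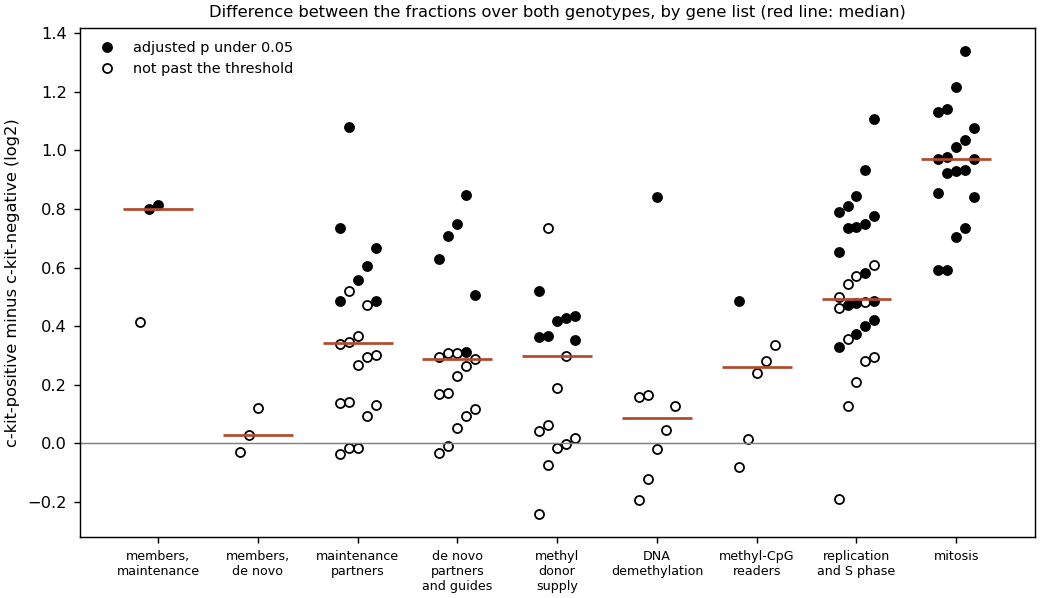
Difference between c-kit-positive and c-kit-negative cells over both genotypes (log2, vertical axis) for the members and the tested genes of 7 lists. Each point is a gene, filled where its adjusted p passed the threshold of 0.05, and red lines are medians. The maintenance members lie within the range of the replication genes, and the de novo members lie near 0.

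Over the 12 arrays, Dnmt1, Uhrf1 and Hells followed the mean of the 30 replication genes, with Pearson r of 0.97, 0.95 and 0.90. For Dnmt3a, Dnmt3b and Dnmt3l r was 0.33, -0.05 and 0.04. These are descriptions over arrays that come in pairs from 6 leukaemias and share the contrast of the fractions. Within c-kit-positive cells alone r was 0.75 for Dnmt1, 0.96 for Uhrf1 and 0.98 for Hells (n = 6 arrays). Without leukaemia 85 it was 0.17, 0.43 and 0.75. The values of Dnmt1 and Uhrf1 thus rest on that leukaemia, and that of Hells does so less. Within c-kit-negative cells alone it was 0.97, 0.84 and 0.92, and 0.90, 0.97 and 0.71 without leukaemia 85. With the mean of the 19 mitosis genes, r over the 12 arrays was 0.92 for Dnmt1, 0.93 for Uhrf1 and 0.74 for Hells. Within c-kit-positive cells alone r with the mitosis genes was 0.65, -0.04 and 0.08. Without leukaemia 85 these values were 0.92, -0.42 and 0.10. Within c-kit-negative cells alone r with the mitosis genes was 0.85, 0.96 and 0.82. Against the replication genes, the de novo genes differed by fraction. Dnmt3b had r = -0.997 within c-kit-negative cells (-0.988 without leukaemia 85) and 0.22 within c-kit-positive cells (-0.56 without it). For Dnmt3l r was 0.81 within c-kit-negative and -0.34 within c-kit-positive cells, and for Dnmt3a it was 0.55 and 0.02. In bulk samples like these, fewer cells of a cycling type and less RNA per cell cannot be told apart.

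**Figure D5:**
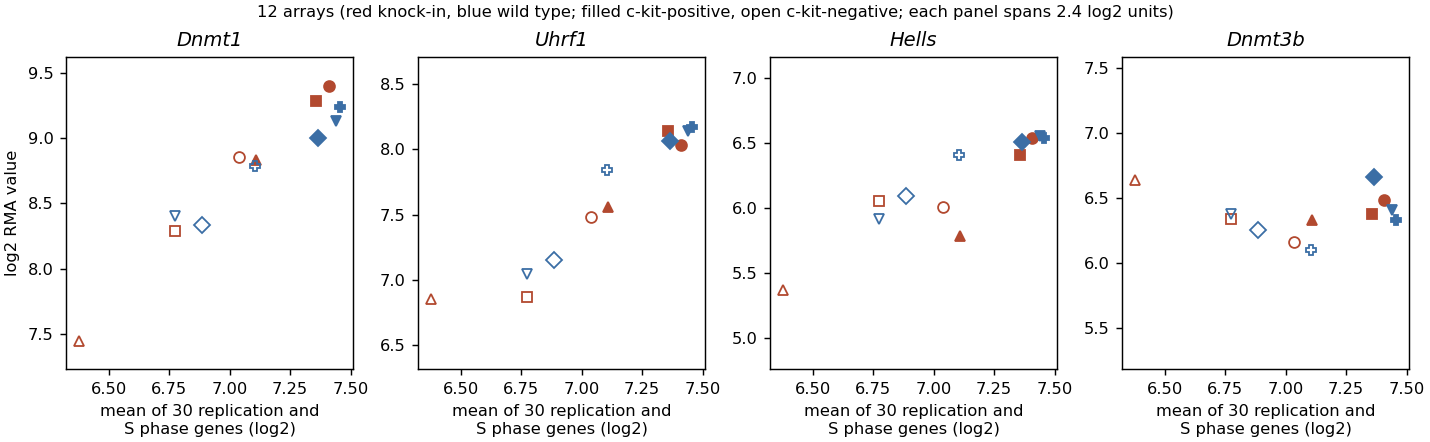
Log2 RMA value of Dnmt1, Uhrf1, Hells and Dnmt3b (vertical axes) against the mean log2 value of 30 replication and S phase genes (horizontal axes) on the 12 arrays. Red marks the knock-in label and blue wild type, filled symbols are c-kit-positive and open ones c-kit-negative cells. The maintenance genes increase along the axis (r = 0.97, 0.95 and 0.90) while Dnmt3b has r = -0.05 over all arrays, -0.997 among the open and 0.22 among the filled symbols.

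Markers of late neutrophils moved with the fractions in the opposite direction. Of 7 such genes 5 fell and 0 rose in c-kit-positive cells, with a median of -1.04, where 2.41% of all tested genes fell. Among them Mmp8, a neutrophil collagenase, fell by 3.06 on the log2 scale. The mean level of the 7 genes was 8.83 to 9.04 in knock-in c-kit-positive and 7.47 to 8.08 in wild-type c-kit-positive cells, and 10.2 to 10.3 in knock-in c-kit-negative and 8.59 to 9.26 in wild-type c-kit-negative cells. Of the 7, 2 rose with the knock-in label over both fractions, Ltf by 2.65 and Ly6g by 2.35, where 0.0261% of all tested genes were called. The part of these markers in the values of the maintenance genes was not tested. In the genotype comparisons 0 genes passed in each of the 7 lists of partners, donors, readers, demethylation and cell cycle genes. The smallest p-values over both fractions among partners were those of Cdca7l (-0.27) and Kat5 (-0.15) for maintenance, and of Rnf2 (-0.36) and Nsd1 (-0.28) for the de novo enzymes.

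The relation of the members to each other was tested over the 6 leukaemia means, which do not hold the contrast of the fractions. Dnmt1 correlated with Uhrf1 at r = 0.88 (exact permutation p = 0.0444) and Spearman rho = 0.71 (exact p = 0.136), and r was 0.86 without leukaemias 81 and 85. Uhrf1 correlated with Hells at r = 0.89 (exact p = 0.0139) and rho = 0.94 (exact p = 0.0167), and r was 0.53 without leukaemias 85 and 79. Dnmt1 and Hells had r = 0.89 (exact p = 0.1) and rho = 0.49 (exact p = 0.356), with r = 0.79 without leukaemias 81 and 85. None of the 15 pairs of members passed after adjustment, the smallest adjusted p being 0.139 for r and 0.125 for rho. Over the 6 c-kit differences, r was 0.38 for Dnmt1 and Uhrf1, 0.46 for Uhrf1 and Hells and 0.12 for Dnmt1 and Hells. No pair of members passed there either (exact permutation, smallest adjusted p = 0.396 for r).

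The maintenance genes ran against Dnmt3b in the leukaemia means. Dnmt1 and Dnmt3b had r = -0.81 (exact permutation p = 0.025, adjusted 0.139) and rho = -0.94 (exact p = 0.0167, adjusted 0.125), with r = -0.995 when leukaemias 81 and 85 were left out. Uhrf1 and Dnmt3b had r = -0.88 (exact p = 0.0278, adjusted 0.139) and rho = -0.77 (exact p = 0.103), and Hells and Dnmt3b r = -0.72 (exact p = 0.05, adjusted 0.15) and rho = -0.60 (exact p = 0.242). Without leukaemias 85 and 79 r was -0.34 for Uhrf1 and 0.47 for Hells, so those relations rest on these leukaemias. Within c-kit-negative cells, examined after the data were seen, Dnmt1 and Dnmt3b had r = -0.96 (exact p = 0.0278) and rho = -0.77 (exact p = 0.103), and r = -0.84 without leukaemias 81 and 85. Within c-kit-positive cells that pair had r = -0.03 (exact p = 0.906) and rho = 0.26 (exact p = 0.658). None of 30 pairs within fractions passed after adjustment, with 0.155 for r of Dnmt1 and Dnmt3b in c-kit-negative cells.

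The genes most like each member over the 12 arrays, by Pearson r among the tested genes with a name, are given as a description. For Dnmt1 they were Ilf2 (0.99), Atad2 (0.98) and Ezh2 (0.98). For Uhrf1 they were Nsd2, Mcm10 and Ndc1, each at 0.97, and for Hells Smg5 (0.97), Kpnb1 (0.96) and Ssb (0.96). For the de novo genes the highest r was lower: Dnmt3a was nearest to Ppfibp2 (0.84), Dnmt3b to Xkr8 (0.92) and Dnmt3l to Gal3st2c (0.93).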

How the data were processed

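Per the submitters' processing notes, the authors summarised the arrays with RMA in Affymetrix Expression Console, and the deposited table holds log2 values for 41345 probe sets on 12 arrays. No versions, batches or scan dates were given in the sources used here. Of the probe sets, 23521 had 1 symbol in the platform annotation, 1814 had several and were not used, and 23328 matched a RefSeq gene. Where a gene had several, the one with the highest mean level was kept.

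Genes above log2 4.61, the 25th percentile, on at least 3 arrays were tested (19152 genes) with limma 3.58.1 in R 4.3.3 on all 12 arrays with 4 group means, two-sided, with Benjamini-Hochberg adjustment and a threshold of 0.05. The genotype comparison over both fractions used leukaemia means. Exact permutation tests used scipy 1.17.1. The numbers in the titles were taken to pair the samples. After removal of group means, both arrays of a leukaemia correlated at 0.279 to 0.601 in all 6 leukaemias. The same correlation for arrays with different numbers is not given. The replicate block was fixed for c-kit contrasts and random for genotype contrasts (statmod 1.5.0, consensus correlation 0.353). For arrays, their number limits the precision.

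The members and gene lists were chosen with earlier results of these data known. Named genes are the members, up to 4 called genes per list and direction with the largest difference or, with none called, up to 2 with the smallest p, and the 3 genes most like each member. On simulated data for the c-kit comparison over both genotypes (19152 genes), 97% of changes of log2 1 and 99% of log2 2 were recovered, with 12 false calls. The simulation changed genes taken at random and drew independent noise for each array, without the correlation within leukaemias. Its rates check the code and do not carry over to the maintenance genes, which varied more than most genes.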

Additional observations from a re-analysis of the deposited data

Results flagged for a closer look

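The 2 values that stood far from the other arrays of their fraction both came from the c-kit-positive array of leukaemia 85, which carries the knock-in label. Uhrf1 was 7.561 there, against 8.031 to 8.171 on the other 5 c-kit-positive arrays, and its gap was 0.77 of the whole range, above Dixon's critical value of 0.625. Hells was 5.78 there, against 6.404 to 6.549, with a gap of 0.81 of the range. In all, 18 sets of 6 values were examined, and chance flags about 1 set in 20. The sets share arrays, so the 2 values are not independent. The mean of the 30 replication genes on this array was 7.11, against 7.36 to 7.46 on the other c-kit-positive arrays, and its part in the 2 values was not tested.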

How the results depend on the processing

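The call counts over both genotypes were 2 of 6 members in the model as reported and 2 or 3 under the other filters, scalings and the replicate block, and 0 to 3 with a leukaemia left out. With the knock-in label alone, 0 members were called as reported, 2 after repeated quantile normalization, 3 with the replicate block and 0 to 1 with a leukaemia left out. In wild type 3 were called with the replicate block. The block moved the c-kit calls over all genes from 1580 to 3758 over both genotypes, from 360 to 1666 with the knock-in label and from 147 to 2109 in wild type, and the genotype calls over both fractions from 5 to 34, and it changed no genotype or interaction call of a member. Of the 8 pairs that passed, 0 can pass with a leukaemia left out, since 5 leukaemias allow no p below 0.0625, and 7 passed after repeated quantile normalization.

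Signs that turned all belong to differences that did not pass the threshold. Without the array of c-kit-negative cells from leukaemia 85 (an alternative chosen after seeing the data), Dnmt1 was 0.10 over both fractions and 0.066 in c-kit-negative cells between the genotype labels, Dnmt3b -0.019 over both fractions and Dnmt3l 0.0012 in c-kit-negative cells. The interaction was then -0.018 for Dnmt1, -0.040 for Uhrf1, -0.18 for Hells and -0.037 for Dnmt3l. With arrays centred on their median, Dnmt3a between the labels over both fractions was -0.021, and Dnmt3l was 0.0098, 0.0025 and 0.017 in the c-kit comparison over both genotypes, with the knock-in label and in wild type, with an interaction of -0.015. With repeated quantile normalization the same values were -0.016, 0.0047, 0.0046, 0.0048 and -0.00019, and Dnmt3b was -0.0016 in the c-kit comparison with the knock-in label. With 1 leukaemia left out, the genotype difference ran from -0.35 to 0.14 (both fractions), -0.64 to 0.066 (c-kit-negative) and -0.066 to 0.22 (c-kit-positive) for Dnmt1, and from -0.064 to 0.053 (both) and -0.021 to 0.16 (c-kit-negative) for Dnmt3a. For Dnmt3b it ran from -0.037 to 0.083 (both) and -0.14 to 0.027 (c-kit-positive), and for Dnmt3l from -0.11 to 0.024 (both), -0.11 to 0.042 (c-kit-negative) and -0.15 to 0.13 (c-kit-positive). The c-kit difference ran from -0.015 to 0.077 (both genotypes) and -0.13 to 0.034 (knock-in label) for Dnmt3a, -0.13 to 0.18 (knock-in label) for Dnmt3b, and -0.086 to 0.066 (both genotypes), -0.13 to 0.17 (knock-in label) and -0.14 to 0.063 (wild type) for Dnmt3l. The genotype difference over both fractions kept its sign for Uhrf1 (-0.38 to -0.11) and Hells (-0.43 to -0.085). The interaction ran from -0.094 to 0.20 for Dnmt3l, -0.092 to 0.16 for Hells and -0.16 to 0.23 for Uhrf1. The cause of these changes was not tested. The table gives no signal over background, and what size of genotype difference the arrays could detect was not tested.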
